A study of Mus musculus with 2 samples.

Results

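The genes described here are 9 of the 32285 genes counted in single cells of mouse meninges: the receptor chains Ifnar1, Ifnar2, Ifngr1 and Ifngr2, the interferon regulatory factors (IRFs) Irf1, Irf5, Irf7 and Irf8, and the signal transducer Stat2. They were taken by their symbols, and each symbol matched 1 row of both matrices. Ifnar1 and Ifnar2 form the receptor for type I interferons, and Ifngr1 and Ifngr2 that for interferon-gamma. Binding of a type I interferon leads to phosphorylation of Stat2, which enters the nucleus together with a further STAT and a further IRF and binds the promoters of interferon-induced genes. The IRFs are DNA-binding proteins that act both upstream, where Irf5 and Irf7 switch on interferon genes after a sensor has met nucleic acid, and downstream, where Irf1 is induced by interferon-gamma, while Irf8 also directs the development of several myeloid cell types.

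The data are 2 libraries, 1 from mice with a mild closed-skull traumatic brain injury (TBI) and 1 from mice that underwent a Sham procedure. Each pooled the dorsal meninges of 5 male C57BL/6 mice (C57BL/6J in the study's methods), collected 1 week after the procedure. A label gives an age of 10 weeks and another 10-12 weeks for both groups, and neither group carries a transgene or drug in the labels. The dorsal tissue leaves out the site of the impact, and injured mice had received a single hit with an impactor on the closed skull. With 1 library per group there is no replicate, no test between TBI and Sham was possible, and every interval is a 95% interval that covers counting error only.

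After filtering, 2043 Sham cells with 7866611 unique molecular identifiers (UMIs) and 3773 TBI cells with 13940740 UMIs were available, at medians of 2764 and 2663 UMIs per cell. Barcodes with more than 5% hemoglobin UMIs, which were left out, made up 22.4% of the Sham and 9.91% of the TBI barcodes, and 14 of the kept barcodes occurred in both libraries. Clustering without the 9 genes gave 22 groups of cells, of which 19 carried the markers of a cell type and are called by it with the ending -like. The other 3 are called by their leading genes, and their sum of 524 cells included a Snhg11/Foxp2-led group with fibroblast markers and Sema3g/Gkn3-led and Slc38a5/Cldn5-led groups with endothelial markers. Levels are given as UMIs of the gene per 1000000 UMIs of the group of cells (CPM), and since the groups were drawn on these same cells, differences between groups are descriptions. Macrophage-like cells, the most frequent class over both libraries together, held 359 Sham and 777 TBI cells and all 15 of its markers, with a summed marker level of 27612 and 29885 CPM against at most 4125 CPM in any other group. Not every list was highest in its own class. The monocyte-like list stood at 6513 and 5893 CPM there, against up to 6866 CPM in plasmacytoid dendritic-like cells. The T cell-like list stood at 7726 and 7763 CPM, against up to 7905 CPM in gamma-delta or Th17-like cells.

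Ifnar1 (GRCm38 chr16:91485238-91507441, plus strand), the chain of the type I interferon receptor that binds the kinase Tyk2, had its highest level in plasmacytoid dendritic-like cells, at 169 CPM in Sham and 131 CPM in TBI. Macrophage-like cells came next with 120.5 and 119 CPM, on 187 and 421 UMIs. The library values of the 2 classes did not overlap, and the macrophage-like values lay apart from those of the next group too. That group was the Sema3g/Gkn3-led one, with 86.5 and 112 CPM on 6 and 14 UMIs. The counting intervals of the 2 classes did overlap. They were 110 to 250 CPM in Sham and 90.6 to 183 CPM in TBI for plasmacytoid dendritic-like cells. For macrophage-like cells they were 104 to 139 and 108 to 131 CPM. The intervals of the Sema3g/Gkn3-led group, 31.7 to 188 CPM in Sham and 61.3 to 188 CPM in TBI, enclosed the macrophage-like ones. Below these groups, levels ran closely together. They were 78.9 and 61.1 CPM in B cell-like, 73.3 and 64.5 CPM in endothelial-like and 45.0 and 39.1 CPM in fibroblast-like cells. In the order, 18 of the 21 neighbouring pairs overlapped. Choroid plexus-like cells, with 3.07 and 3.88 CPM, were lowest. A UMI of Ifnar1 was found in 30.1% of Sham and 34.7% of TBI cells of the macrophage-like class, at median depths of 2221 and 3889 UMIs, and in 1.69% of Sham and 1.50% of TBI cells of the choroid plexus-like class at 2975 and 3536 UMIs. After each cell was thinned to 1000 UMIs, which left out 99 Sham and 119 TBI macrophage-like cells, the macrophage-like shares were 7.69% and 11.6%.

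Ifnar2 (chr16:91372783-91405589, plus strand), the chain with the higher affinity for interferon, was also highest in plasmacytoid dendritic-like cells, at 603 CPM in Sham and 408 CPM in TBI, and macrophage-like cells were again next with 369.8 and 304 CPM. Endothelial-like cells held 335 and 239.7 CPM and fibroblast-like cells 218 and 204 CPM, both above the 148 and 136 CPM of T cell-like, the 116 and 123 CPM of NK-like and the 84.2 and 85.6 CPM of B cell-like cells. The 2 chains of this receptor were not spread alike over the cells. Of all UMIs of either chain, Ifnar1 made up 16.2% (interval 13.04 to 19.9%) in fibroblast-like and 19.9% (interval 16.6 to 23.5%) in endothelial-like cells, 27.0% (interval 25.1 to 28.8%) in macrophage-like cells, and 45.7% (interval 40.02 to 51.5%) in B cell-like cells. The Snhg11/Foxp2-led group, which carries fibroblast markers, had a share of 46.7% (interval 38.04 to 55.4%), unlike the fibroblast-like class. In Sham the B cell-like share was 48.4% and in TBI 41.7%, against 17.1% and 16.1% in fibroblast-like cells.

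Ifngr1 (chr10:19591949-19610229, plus strand), the chain that binds interferon-gamma, had the widest range of the receptor genes. Gamma-delta or Th17-like cells reached 2127 CPM in Sham and 2237 CPM in TBI, far from the next in the order, monocyte-like cells with 787 and 791 CPM. NK-like cells with 847 and 678 CPM overlapped the monocyte-like values, and T cell-like cells with 602 and 530.0 CPM overlapped macrophage-like cells with 519 and 559 CPM. These 2 pairs lay apart from each other. Dendritic-like cells held 349 and 391 CPM and endothelial-like cells 334 and 351 CPM, which overlapped. B cell-like cells held 86.9 and 122 CPM, and plasmacytoid dendritic-like cells, highest for both chains of the other receptor, held 74.6 and 42.3 CPM.

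Ifngr2 (chr16:91547072-91565623, plus strand), the chain that starts signalling once interferon-gamma is bound, showed a different order. It was highest in monocyte-like cells with 219 and 208 CPM and in macrophage-like cells with 199.7 and 201 CPM, and lower in dendritic-like (90.4 and 121 CPM), B cell-like (77.1 and 88.0 CPM) and endothelial-like cells (81.0 and 70.1 CPM). T cell-like and NK-like cells, rich in Ifngr1, had few UMIs of it. T cell-like cells held 6 and 11 UMIs of Ifngr2 (9.16 CPM in Sham and 11.2 CPM in TBI) and NK-like cells 1 UMI in each library. A UMI of Ifngr2 was seen in 3.39% of Sham and 3.49% of TBI cells of the T cell-like class at median depths of 3503 and 3236 UMIs, and in 1.69% of Sham and 5.26% of TBI cells of the choroid plexus-like class. The T cell-like share was above that of the choroid plexus-like class in Sham and below it in TBI, and the intervals of the shares overlapped in both libraries. After thinning to 1000 UMIs the T cell-like shares were 0.704% and 0.862%. Gamma-delta or Th17-like cells, highest in Ifngr1, had no Ifngr2 UMI in 12 Sham cells and 4 UMIs in 28 TBI cells, where 14.3% of cells had one.

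The share of Ifngr1 among the UMIs of both chains of the interferon-gamma receptor set these classes apart. It was 99.4% (interval 97.9 to 99.9%) in NK-like, 98.2% (interval 97.1 to 98.9%) in T cell-like and 98.7% (interval 96.6 to 99.6%) in gamma-delta or Th17-like cells. In macrophage-like cells it was 73.2% (interval 71.7 to 74.6%), in dendritic-like cells 77.7% (interval 75.5 to 79.7%), in B cell-like cells 55.5% (interval 50.1 to 60.7%), and in migratory dendritic-like cells 26.7% (interval 17.1 to 38.1%). In ILC2 or Th2-like cells, which share lymphoid descent with T cells, the chains were less uneven, with a share of 76.7% (interval 70.6 to 82.0%) that was 87.4% in Sham and 64.8% in TBI. There Ifngr1 was 365 CPM in Sham and 192 CPM in TBI and Ifngr2 52.6 CPM in Sham and 104 CPM in TBI, log2 ratios of -0.92 (interval -1.38 to -0.47) and 0.96 (interval 0.09 to 1.96). A UMI of Ifngr1 was present in 31.7% of Sham and 36.2% of TBI cells, and in 18.1% and 18.1% after thinning, so the share of cells was not lower in TBI. For Ifngr2 the shares were 10.6% and 25.4%. As the 3' counts of different genes depend on the transcript, the shares are compared between groups of cells and not read as chain ratios.

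**Figure D1:**
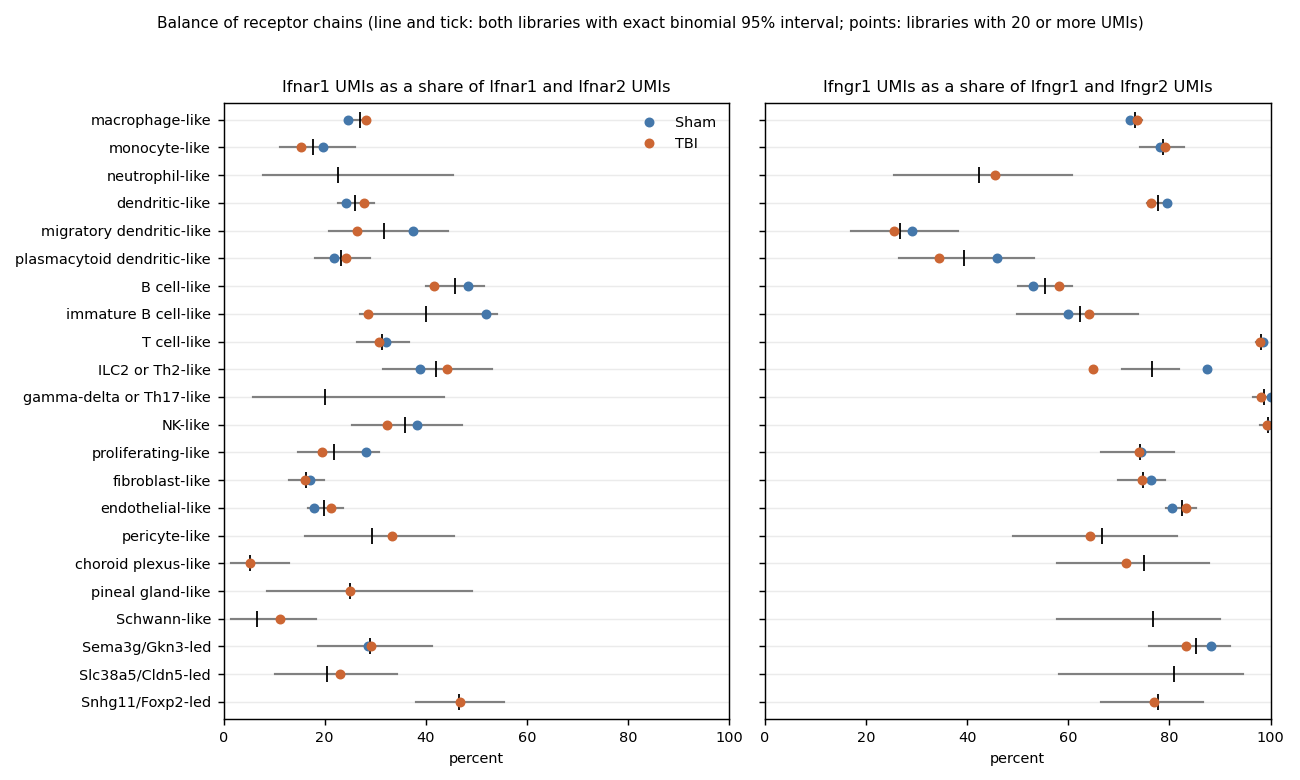
UMIs of the first chain as a percent of the UMIs of both chains of a receptor, for the type I interferon receptor (left) and the interferon-gamma receptor (right), in each group of cells with at least 20 UMIs. Lines and ticks give both libraries together with the exact binomial 95% interval and points the libraries with at least 20 UMIs; NK-like, T cell-like and gamma-delta or Th17-like cells lie at the right edge for Ifngr1.

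Irf1 (chr11:53770014-53778374, plus strand), a factor that interferon-gamma induces and that acts on antigen-presentation genes, was highest in migratory dendritic-like cells with 406 CPM in Sham and 451 CPM in TBI. NK-like cells followed with 312 and 219 CPM, library values apart from both neighbours in the order. Their counting intervals, 246 to 389 CPM in Sham and 157 to 297 CPM in TBI, overlapped those of the Sema3g/Gkn3-led group below. These were 110 to 339 and 123 to 286 CPM, on 14 and 24 UMIs. In Sham the NK-like interval also overlapped that of migratory dendritic-like cells, 317 to 512 CPM. Endothelial-like cells (216 and 156 CPM) and T cell-like cells (169.5 and 184 CPM) held more than macrophage-like (83.7 and 109 CPM), B cell-like (88.7 and 104 CPM) and fibroblast-like cells (63.8 and 48.1 CPM). Choroid plexus-like cells were lowest with 6.14 and 7.76 CPM.

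Irf5 (chr6:29526625-29541871, plus strand), which acts below Toll-like receptors in the induction of cytokines, divided the groups more sharply. Monocyte-like cells held 426 and 438 CPM, dendritic-like 257 and 271 CPM, B cell-like 222 and 254 CPM and macrophage-like cells 204 and 199 CPM. T cell-like cells held 19.9 and 28.5 CPM, with a UMI in 6.21% of Sham and 8.53% of TBI cells. In endothelial-like cells there was no UMI in Sham, where 3 counts would be 5.78 CPM, and 6 UMIs in TBI, or 0.858% of the cells. The Sema3g/Gkn3-led and pineal gland-like groups had no Irf5 UMI in either library, and neutrophil-like cells had 1 and 3 UMIs. For the Sema3g/Gkn3-led group 3 counts would be 43.3 CPM in Sham and 24.0 CPM in TBI, and for pineal gland-like cells 46.5 and 15.0 CPM.

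Irf7 (chr7:141262706-141266481, minus strand), which interferon itself induces and which then amplifies interferon production, was highest in plasmacytoid dendritic-like cells, the professional producers of type I interferon, with 386 CPM in Sham and 542 CPM in TBI. Monocyte-like cells held 148 and 299 CPM, macrophage-like 168 and 235 CPM, T cell-like 108 and 131 CPM, dendritic-like 85.6 and 164 CPM, and endothelial-like cells 100.2 and 124 CPM. B cell-like cells, with 33.7 and 31.8 CPM, and fibroblast-like cells, with 11.3 and 21.0 CPM, were near the lower end.

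Irf8 (chr8:120736358-120756694, plus strand), needed for the development of plasmacytoid and type 1 conventional dendritic cells, had the widest range of the 9 genes. It reached 3369 CPM in Sham and 3215 CPM in TBI in plasmacytoid dendritic-like cells, where every cell of both libraries had a UMI. NK-like cells held 799 and 508 CPM, B cell-like 515 and 483 CPM, dendritic-like 289.5 and 482 CPM and macrophage-like cells 198 and 216 CPM. Between macrophage-like and the next group, T cell-like cells with 39.7 and 53.0 CPM, the libraries lay far apart. ILC2 or Th2-like cells, with 3 UMIs in each library, showed a UMI in 1.92% of Sham and 2.31% of TBI cells at medians of 2936.5 and 2951.5 UMIs. Neutrophil-like and Sema3g/Gkn3-led cells had no Irf8 UMI in either library. In these small groups 3 counts would be 65.0 CPM in Sham and 32.4 CPM in TBI, and 43.3 and 24.0 CPM, respectively. A background level was not estimated.

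Stat2 (chr10:128270559-128292849, plus strand), the STAT particular to type I and type III interferon receptors, was low in most groups. Plasmacytoid dendritic-like cells held 136 CPM in Sham and 127 CPM in TBI. The Sema3g/Gkn3-led group overlapped them, with 115 and 144 CPM on 8 and 18 UMIs, and the Snhg11/Foxp2-led group held 106 and 79.2 CPM. Endothelial-like cells held 79.0 and 78.4 CPM, fibroblast-like 75.0 and 39.1 CPM and dendritic-like cells 43.1 and 57.9 CPM. Macrophage-like cells held 43.2 and 53.4 CPM, B cell-like 47.0 and 42.8 CPM and T cell-like cells 21.4 and 29.6 CPM. For Stat2, 18 of 21 neighbouring pairs overlapped between libraries, as for Ifnar1, against 14 for Irf5. NK-like cells had 1 and 4 UMIs and choroid plexus-like cells 0 and 3 UMIs.

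**Figure D2:**
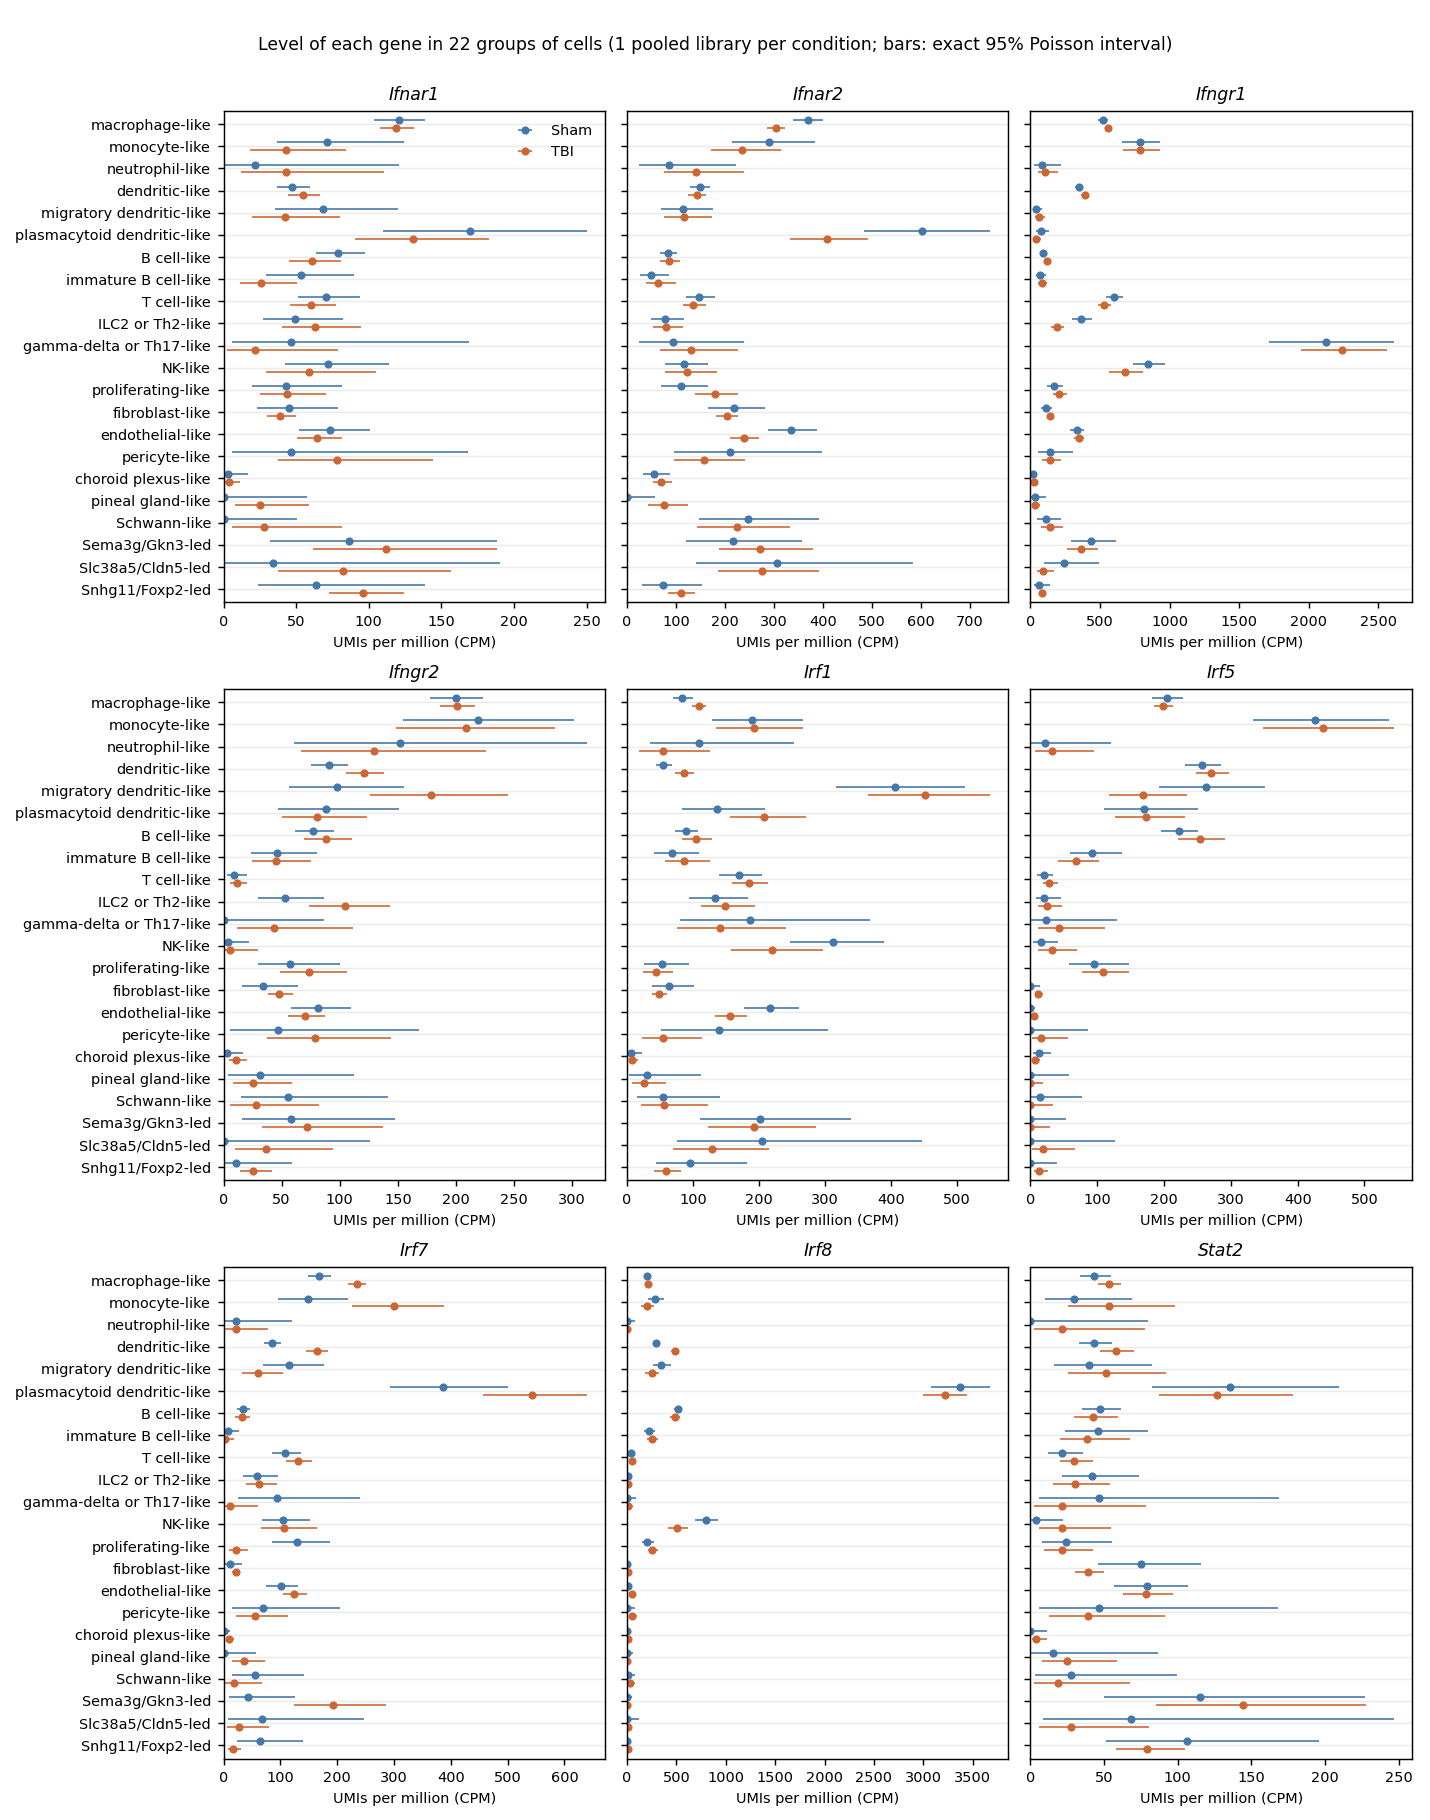
Level of each of the 9 genes in CPM (horizontal axis, own scale per gene) in the 22 groups of cells, Sham in blue and TBI in orange, with exact Poisson 95% intervals. Plasmacytoid dendritic-like cells stand out for Ifnar2, Irf7 and Irf8, and gamma-delta or Th17-like cells for Ifngr1, where they reach 2127 and 2237 CPM. For Ifnar1 the intervals of plasmacytoid dendritic-like and macrophage-like cells overlap in both libraries.

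The promoters of 4 of the genes are shown because the IRFs and Stat2 are themselves targets of interferon signalling, with the letters that STAT dimers and IRFs bind set off where they are present. RefSeq gives 11 promoters for the 9 genes on GRCm38.p6, each from 250 bases before to 50 after a start. Capitals mark matches to TTCNNNGAA, the core of a gamma-activated site, or to GAAA followed by any 2 bases and a further GAAA, the core of an interferon-stimulated response element, on either strand. The sequences are at chr11:53769764-53770063 (plus strand) for Irf1, chr8:120736108-120736407 (plus strand) for Irf8, chr10:128270248-128270547 (plus strand) for Stat2 and chr7:141266375-141266674 (minus strand) for Irf7.
Irf1: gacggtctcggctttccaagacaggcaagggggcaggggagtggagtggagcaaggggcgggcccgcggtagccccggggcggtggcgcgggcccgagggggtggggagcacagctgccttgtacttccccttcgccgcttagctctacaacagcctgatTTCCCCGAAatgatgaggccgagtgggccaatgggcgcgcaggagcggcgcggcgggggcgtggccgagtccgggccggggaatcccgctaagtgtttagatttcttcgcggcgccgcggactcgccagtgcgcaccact
Irf8: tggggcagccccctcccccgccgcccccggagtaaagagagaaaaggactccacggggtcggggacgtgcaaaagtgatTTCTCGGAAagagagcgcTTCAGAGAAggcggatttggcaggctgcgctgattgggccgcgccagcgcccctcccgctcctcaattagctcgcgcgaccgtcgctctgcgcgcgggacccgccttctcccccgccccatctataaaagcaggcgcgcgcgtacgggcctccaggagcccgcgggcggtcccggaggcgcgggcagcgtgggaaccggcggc
Stat2: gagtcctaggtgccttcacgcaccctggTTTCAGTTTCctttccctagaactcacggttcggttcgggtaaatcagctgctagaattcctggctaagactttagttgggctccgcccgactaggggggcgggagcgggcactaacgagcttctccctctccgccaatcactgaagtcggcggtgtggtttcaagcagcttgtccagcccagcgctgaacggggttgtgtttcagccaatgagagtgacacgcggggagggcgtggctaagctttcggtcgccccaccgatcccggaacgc
Irf7: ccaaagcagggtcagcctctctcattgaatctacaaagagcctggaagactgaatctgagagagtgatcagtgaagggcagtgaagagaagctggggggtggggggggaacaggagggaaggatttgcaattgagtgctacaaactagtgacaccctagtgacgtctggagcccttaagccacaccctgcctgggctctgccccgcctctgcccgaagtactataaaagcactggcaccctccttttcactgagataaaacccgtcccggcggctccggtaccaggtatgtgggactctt

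Irf1 held TTCCCCGAA at 90 bases before its start, and Irf8 held TTCTCGGAA and TTCAGAGAA at 171 and 153 bases before. Ifnar1 held TTCACGGAA at 5 and Ifnar2 TTCCTGGAA at 214 bases before their starts. In all, 4 of the 9 genes, and 4 of their 11 promoters, had a match to TTCNNNGAA, which is present in 8.30% of 32851 mouse promoters of the same length. The response element core was found in Stat2, as TTTCAGTTTC at 222 bases before the start, and 3.44% of all promoters hold it. The Irf7 window had neither set of letters, nor had those of Ifngr1, Ifngr2 and Irf5. A match describes the sequence and no more.

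The comparison of TBI with Sham was made within each of 7 main classes, as the log2 ratio of CPM. A member with at least 20 UMIs in a class was counted as past the fold when TBI and Sham differed by at least 1.5-fold. The share of all other genes past the fold is given over genes with at least 50 UMIs, and it is larger among genes with fewer. In macrophage-like cells  none of the 9 genes was past it, against 6.96% of 7768 genes. Of the 9, 6 lay above 0 and the median was 0.11, with all genes at 0.01. Irf7 had the highest ratio, 0.48 (interval 0.28 to 0.69), with 168 CPM in Sham and 235 CPM in TBI, followed by Irf1 with 0.37 (interval 0.08 to 0.67) and Stat2 with 0.30 (interval -0.10 to 0.73). Ifnar2 had the lowest, -0.28 (interval -0.43 to -0.14). The intervals of Irf7, Irf1 and Ifnar2 left out 0, while Ifnar1 (-0.02), Ifngr2 (0.01) and Irf5 (-0.04) were at nearly the same level in both libraries, with intervals of -0.27 to 0.24, -0.19 to 0.21 and -0.23 to 0.16. With equal weight for every cell, the Irf5 ratio was 0.20, outside its interval. Ifngr1 moved from 0.11 (interval -0.01 to 0.23) to 0.27 in the same way.

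The macrophage-like cells came from 3 clusters that differed in depth and in these genes. The Cx3cr1/Fcgr4-led cluster (105 Sham and 260 TBI cells) held Irf5 at 257 and 260.2 CPM and Irf7 at 206 and 317 CPM, while the Folr2/Cd209f-led cluster (119 and 320 cells) held Irf5 at 159 and 156 CPM and Irf7 at 129 and 169 CPM. Irf7 was higher in TBI in both, with log2 ratios of 0.62 (interval 0.37 to 0.88) and 0.38 (interval 0.02 to 0.78). Irf8 pointed in opposite directions, at 0.37 (interval 0.11 to 0.64) in the first and -0.23 (interval -0.54 to 0.09) in the second, and the difference between the clusters was not tested. Ifnar2 was lower in TBI in both, at -0.26 (interval -0.46 to -0.07) and -0.34 (interval -0.59 to -0.09). The Hpgds/Cd209g-led cluster was shallow, with medians of 806 and 967 UMIs, and there Ifnar1 was 77.1 and 146 CPM on 11 and 36 UMIs. Ifnar2 was not lower in TBI in this cluster, at 196 and 239 CPM on 28 and 59 UMIs, a ratio of 0.27 (interval -0.39 to 0.99). With equal weight for every cell, the Ifnar2 ratio of the whole macrophage-like class was -0.04.

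For Ifnar1, the result depended on which macrophage-like cells carried the weight. In cells below 1000 UMIs it stood at 71.8 and 235 CPM (5 and 21 UMIs) and in those of 2000 to 4000 UMIs at 60.0 and 144 CPM (7 and 56 UMIs), higher in TBI. In cells of 4000 to 8000 UMIs it stood at 112 and 115 CPM, and above 8000 UMIs at 141 and 107 CPM (111 and 145 UMIs), lower in TBI. When every cell had the same weight the log2 ratio was 0.49, and in cells thinned to 1000 UMIs it was 0.59, past 1.5-fold. Irf7 differed most in cells of 4000 to 8000 UMIs, with 74.1 and 257 CPM. It was 201 and 269 CPM below 1000 UMIs, 253 and 169.6 CPM from 1000 to 2000, 206 and 197 CPM from 2000 to 4000 and 205 and 229 CPM above 8000 UMIs, so it was lower in TBI in 2 of the 5 depth bands. Its ratio over the class was 0.28 with equal weights and 1.09 with each cell placed in the class whose marker list was highest in it. Of the macrophage-like cells, 99 of 359 in Sham and 119 of 777 in TBI had fewer than 1000 UMIs, and the part of depth in the Ifnar1 values cannot be told apart from the condition.

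Irf7 was concentrated in a small number of cells. In the Sham macrophage-like class, 15 cells with 5 or more Irf7 UMIs (4.18% of the class) held 164 of its 261 Irf7 UMIs. In TBI, 47 such cells (6.05%) held 572 of 830. A summed list of 38 other interferon-induced genes stood at 17093 and 21042 CPM in these cells, at 7118 and 7120.0 CPM in cells with 1 to 4 Irf7 UMIs, and at 4120.0 and 4034 CPM in cells with none. The cells with more Irf7 were also deeper, with medians of 8968 and 7344 UMIs against 1771 and 2992. Of the Sham Irf7 UMIs, 81 were in 3 cells and 36 in 1. Without the 3 highest cells of each library the ratio was 0.74, on 180 and 697 UMIs. Dendritic-like cells showed the same order, from 3307 and 2908 CPM in cells without an Irf7 UMI to 7364 and 13222 CPM in the 7 and 11 cells with 5 or more.

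In dendritic-like cells, 3 of the 9 genes were past 1.5-fold, all higher in TBI, where 7.01% of 5935 genes were past it in either direction. The median of the 9 was 0.42, from -0.06 to 0.93, and that of all genes 0.01. Irf7 stood at 85.6 CPM in Sham and 164 CPM in TBI, a log2 ratio of 0.93 (interval 0.63 to 1.25), which ranged from 0.76 to 1.10 over 11 alternatives. Of the 286 TBI UMIs 71 were in 1 cell and 127 in 3, and of the 125 Sham UMIs 36 were in 1 cell and 50 in 3. The share of cells with an Irf7 UMI was not higher in TBI, at 26.5% and 20.2%, and was 7.48% and 9.95% after thinning. The 11 TBI cells with 5 or more Irf7 UMIs held 218 of the 286 and carried summed plasmacytoid dendritic markers at 209.6 CPM. These markers stood at 34.7 CPM in TBI cells with 1 to 4 Irf7 UMIs and 42.0 CPM in those without Irf7. In the plasmacytoid dendritic-like class they stood at 7626 CPM in Sham and 7954 CPM in TBI. The part of cells with such markers in the ratio was not tested. Irf8 stood at 289.5 CPM in Sham and 482 CPM in TBI, a ratio of 0.74 (interval 0.57 to 0.91). Irf1 stood at 54.8 CPM in Sham and 86.5 CPM in TBI, a ratio of 0.66 (interval 0.26 to 1.07). Of the TBI Irf1 UMIs, 26 of 151 came from 1 cell, and without the 3 highest cells of each library the ratio was 0.43. Ifngr2, at 0.42 (interval 0.10 to 0.75), and Stat2, at 0.42 (interval -0.04 to 0.90), were below the fold.

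Xcr1 and Clec9a, which mark type 1 conventional dendritic cells, were used to divide the dendritic-like class, a choice made after its values were seen. Cells with a UMI of either gene numbered 38 in Sham (22.9% of the class) and 65 in TBI (25.3%). Their median depths were 11015.5 UMIs in Sham and 10164 UMIs in TBI, against 9136 and 6101.5 UMIs in the rest of the class. Levels weigh cells by their UMIs, so a class ratio also depends on how the UMIs divide between the 2 sets. The part of this in the Irf8 ratio of the class was not tested. In the cells with either gene Irf8 was 870.3 CPM in Sham and 1221 CPM in TBI, against 73.3 CPM in Sham and 55.2 CPM in TBI in the rest. The log2 ratio of Irf8 was 0.49 (interval 0.30 to 0.68) in the first set and -0.41 (interval -0.92 to 0.09) in the second. Irf7 stood at 187 CPM in Sham and 341 CPM in TBI in the first set and 47.9 CPM in Sham and 61.5 CPM in TBI in the second, ratios of 0.86 (interval 0.48 to 1.27) and 0.36 (interval -0.18 to 0.91). For Irf1 the ratios were 0.83 (interval 0.22 to 1.51) and 0.34 (interval -0.21 to 0.89). Irf5 had ratios of 0.06 (interval -0.26 to 0.40) and 0.01 (interval -0.24 to 0.27). No test of the difference between the sets was possible. Over the whole class, the Irf8 ratio was -0.18 with equal weight for every cell and 0.11 in cells thinned to 1000 UMIs. In the TBI library, 3 dendritic-like cells carried 5 or more UMIs of mast cell genes and the class held 845 such UMIs in all, against 5 in Sham. Doublet scores marked 10 TBI cells (3.89%) against 1 Sham cell (0.602%) of the class. The number marked per library was fixed by its size, at 3.02% of all TBI and 1.62% of all Sham cells. Without the marked cells the ratios of Irf1, Irf7 and Irf8 were 0.69, 0.96 and 0.76.

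**Figure D3:**
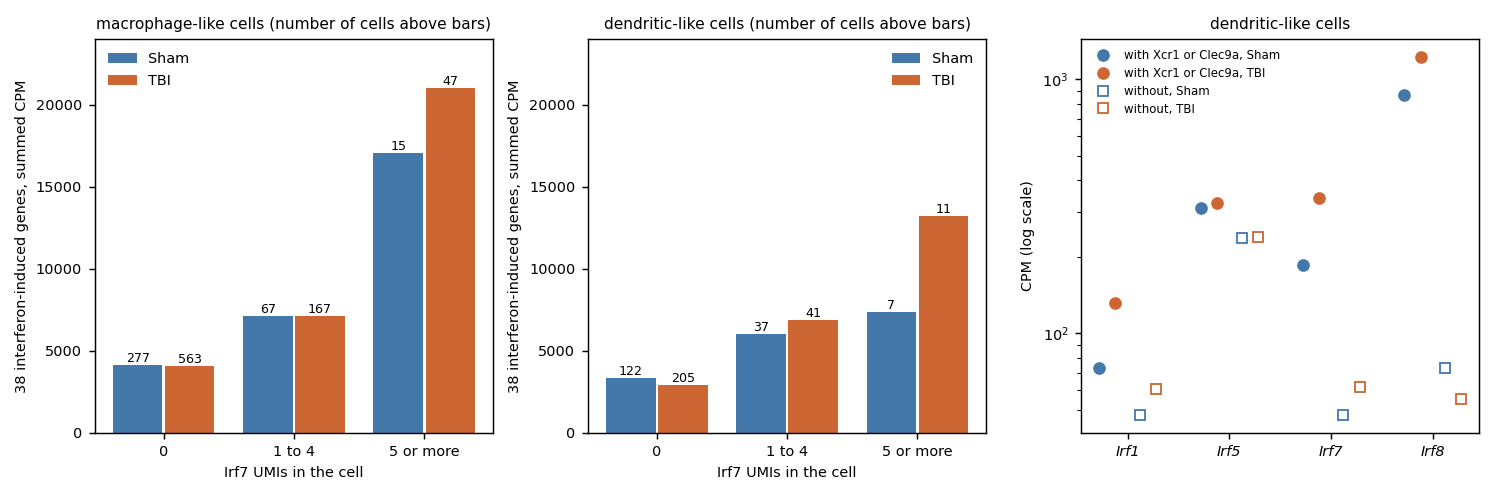
Left and middle, summed level in CPM of 38 interferon-induced genes in macrophage-like and dendritic-like cells, by the number of Irf7 UMIs in the cell, with the number of cells above each bar; right, CPM (log scale) of 4 IRFs in dendritic-like cells with and without a UMI of Xcr1 or Clec9a. The list is highest in cells with 5 or more Irf7 UMIs in both libraries and classes, and Irf8 separates the dendritic-like cells most, at 870.3 and 1221 CPM against 73.3 and 55.2 CPM.

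In B cell-like cells none of the 9 genes was past the fold, where 8.77% of 5061 genes were, and the median was 0.03. Ifngr1 had the highest ratio there, 0.49 (interval 0.08 to 0.91), and Ifnar1 the lowest, -0.36 (interval -0.90 to 0.15). In T cell-like cells none of 8 genes was past the fold, against 8.24% of 4524 genes, and the median was 0.20. Irf5 at 0.49 (interval -0.47 to 1.596), Stat2 at 0.44 (interval -0.50 to 1.50) and Irf8 at 0.40 (interval -0.29 to 1.16) had the highest ratios. Of the 26 Sham Irf8 UMIs 19 were in 3 cells, and without the 3 highest cells of each library its ratio was 1.53, on 7 and 33 UMIs. The summed red cell markers of this class were 2106 CPM in Sham and 233 CPM in TBI. The summed macrophage markers were 19.9 CPM in Sham and 315 CPM in TBI, the summed B cell markers 144 and 246 CPM, and 0.565% and 4.26% of cells were marked as doublets. Their part in the Irf5 and Irf8 values was not tested. In NK-like cells, 1 of 6 genes was past the fold, against 8.51% of 1339 genes. That gene was Irf8, lower in TBI, with 799 CPM in Sham and 508 CPM in TBI, counting intervals of 692 to 917 and 411 to 620.4 CPM, and a ratio of -0.65 (interval -1.02 to -0.29). Its ratio lay between -0.88 and -0.47 over the alternatives. Irf1, at -0.50 (interval -1.09 to 0.06), and Ifngr1, at -0.32 (interval -0.65 to 0.00), had intervals that held 0.

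In endothelial-like cells, 1 of 8 genes was past the fold, against 10.2% of 5488 genes, and the median was -0.11. It was Irf8, at 9.64 CPM in Sham and 46.1 CPM in TBI on 5 and 50 UMIs, a ratio of 2.13 (interval 0.94 to 3.94). Most of these UMIs, 34 of the 50 in TBI, were in the Vwf/Slco2a1-led cluster, where Sham had 1. Markers of other cells differed in both directions in this class. The summed red cell markers were lower in TBI, at 2248 and 372 CPM. The summed B cell markers were higher in TBI, at 25.1 and 323 CPM, as were the summed macrophage markers, at 216 and 608 CPM. Their part in the Irf8 value was not tested, and without cells marked as doublets the ratio was 1.47. Without the 3 highest cells of each library it was 3.54, on 1 and 36 UMIs. Ifnar2 was lower in TBI, at 335 CPM in Sham and 239.7 CPM in TBI and -0.49 (interval -0.77 to -0.20), as was Irf1, at 216 and 156 CPM and -0.47 (interval -0.82 to -0.11). The clusters differed for Irf1, with 263 and 188 CPM in the Gpihbp1/Igfbp3-led cluster, a ratio of -0.48 (interval -0.86 to -0.10). In the Vwf/Slco2a1-led cluster Irf1 was 58.7 and 96.7 CPM, a ratio of 0.64 (interval -0.47 to 2.13). That cluster held 58 of 259 Sham and 152 of 466 TBI cells, and its part in the class ratio was not tested. Irf7 was higher in the Gpihbp1/Igfbp3-led cluster, with 118 and 169.5 CPM and 0.52 (interval 0.03 to 1.05), and at 42.0 and 41.8 CPM in the other.

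Fibroblast-like cells numbered 65 in Sham and 449 in TBI, so the Sham values rest on few UMIs. There 19.5% of 6263 genes with at least 50 UMIs were past the fold. With a minimum of 10 UMIs the share was 32.8%, and Irf7 and Irf5 each had fewer than 50 UMIs. Of 8 members, 3 were past it with 0.5 added to each sum. The count was 2 when Irf5, which had no UMI in Sham, was set against 3 counts in Sham. Stat2 was lower in TBI, at 75.0 CPM in Sham and 39.1 CPM in TBI on 20 and 65 UMIs, a ratio of -0.97 (interval -1.68 to -0.14). Irf7 stood at 11.3 and 21.0 CPM, a ratio of 0.70 (interval -0.76 to 3.25) on 3 and 35 UMIs, and its direction turned when the Snhg11/Foxp2-led group was joined to the class, to -0.39. Irf5 had no UMI in Sham and 20 in TBI, 1.07-fold higher against 3 counts in Sham. The interval of its log2 ratio began at -0.34, so a lower level in TBI was within counting error. Of those 20 UMIs, 13 were in 3 cells, and the summed macrophage markers of the class were 78.8 CPM in Sham and 768 CPM in TBI. The part of cells with such markers in the Irf5 count was not tested. Doublet scores marked 13.8% of Sham and 6.24% of TBI cells of this class. The median of the 8 members was 0.12, and -0.00 with Irf5 set against 3 counts in Sham. The Snhg11/Foxp2-led group, also rich in fibroblast markers, held Stat2 at 106 and 79.2 CPM and Ifnar1 at 63.8 and 96.0 CPM.

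**Figure D4:**
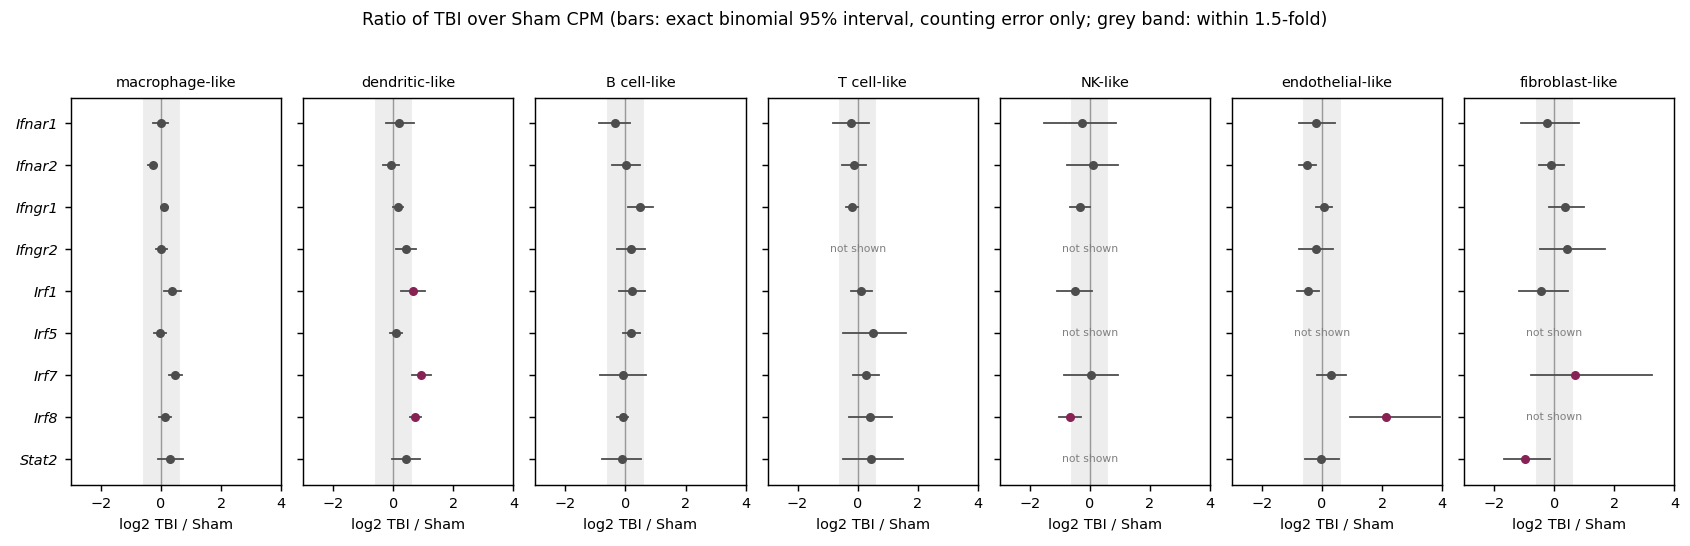
Log2 ratio of TBI over Sham CPM (horizontal axis) for the 9 genes in 7 classes, with exact binomial 95% intervals and a grey band for differences within 1.5-fold. Genes with under 20 UMIs, or with none in Sham, are not shown. In macrophage-like, B cell-like and T cell-like cells all points are inside the band, while Irf1, Irf7 and Irf8 lie to its right in dendritic-like cells and Irf8 to its left in NK-like cells.

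Outside the main classes, Irf7 had a ratio of 1.00 (interval 0.31 to 1.76) in monocyte-like cells (148 CPM in Sham and 299 CPM in TBI), 0.48 (interval 0.04 to 0.96) in plasmacytoid dendritic-like cells and 1.96 (interval 0.43 to 4.53) in the Sema3g/Gkn3-led group, the last on 3 and 24 UMIs. In proliferating-like cells it was lower in TBI, 129 and 21.7 CPM on 27 and 8 UMIs. Ifnar2 was lower in plasmacytoid dendritic-like cells, with -0.57 (interval -0.99 to -0.14). Over all groups of cells with at least 20 UMIs of a gene, 126 ratios were formed, and 21 intervals left out 0, 13 above and 8 below. Among all other genes under the same rule, 9.61% of 98387 ratios had such an interval, 5.09% above 0 and 4.52% below. Irf7 gave 6 of the 21, out of 13 ratios, with 5 above 0 and 1 below, and Ifnar2 gave 3 out of 19, all below 0. The ratios of a gene in different groups of cells come from the same pair of libraries.

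Over whole libraries the classes and their sizes are mixed. Irf7 was 94.96 CPM in Sham and 127 CPM in TBI, a ratio of 0.42 (interval 0.29 to 0.54). The different shares of the groups of cells in the UMIs of each library, with each group held at its level over both libraries, would alone give -0.01. For Irf8, the whole-library ratio was -0.26 (interval -0.34 to -0.18) and the UMI shares would give -0.40. For Irf5 the values were -0.27 (interval -0.38 to -0.16) and -0.32. B cell-like cells held 25.8% of the Irf8 UMIs and 21.6% of the Irf5 UMIs of the Sham library. They made up 1127850 of all 7866611 Sham UMIs and 817753 of all 13940740 TBI UMIs, from 18.1% and 7.69% of the cells. Ifnar1, Ifnar2 and Ifngr1 had whole-library ratios of -0.03, -0.02 and -0.01, where the UMI shares would give 0.03, 0.16 and -0.04. The ratio of Ifngr2 was 0.15 (interval 0.02 to 0.29), against -0.001 from the UMI shares.

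Other genes of the pathway were counted by the same rule in macrophage-like cells. Of 38 interferon-induced genes in the matrices, 7 of 37 measured genes were higher and 1 lower past the fold, with a median of 0.20, and Ifit3b, Ifit2 and Oas3, at 1.12, 0.97 and -0.94, had the largest ratios in size. Ifi203, a DNA-binding protein of the same list, stood at 147 and 177 CPM. Of the negative regulators of interferon signalling, 2 of 8 measured genes were higher and 0 lower past the fold, with a median of 0.44. These 2 were Socs3 with 9.02 and 18.7 CPM and Socs1 with 22.5 and 35.9 CPM, both inhibitors of the receptor kinases. Among other receptor chains and kinases, 0 of 4 measured genes were higher and 0 lower past the fold, with a median of 0.22. Among other IRFs, STATs and IRF2-binding proteins, 1 of 13 measured genes were higher and 0 lower past the fold, with a median of 0.04, and Irf2bp2, a co-repressor of an IRF, stood at 89.5 and 112 CPM. Among sensors and genes of interferon induction, 1 of 13 measured genes were higher and 0 lower past the fold, with a median of -0.00. In dendritic-like cells, 12 of 38 measured interferon-induced genes were higher and 1 lower past the fold, with a median of 0.19, beside the 3 of 9 described above. The list was not higher everywhere. In T cell-like cells 3 of 31 measured genes were higher and 4 lower past the fold, with a median of -0.22, and in fibroblast-like cells 4 of 23 measured genes were higher and 5 lower past the fold, with a median of 0.03. In B cell-like, NK-like and endothelial-like cells the medians were 0.31, 0.36 and 0.17. The all-gene shares above, 6.96% in macrophage-like and 7.01% in dendritic-like cells, are over genes with at least 50 UMIs. The list genes needed only 20 UMIs, so these shares are too low to serve as their background. With a minimum of 10 UMIs the shares were 16.6% in macrophage-like and 18.47% in dendritic-like cells. In T cell-like and fibroblast-like cells they were 8.24% and 19.5% at 50 UMIs, and larger at 10. No share was computed at 20 UMIs, so enrichment of the lists was not tested. Of 11 interferon genes looked for, only Ifng, which encodes interferon-gamma, had any UMI, 48 in Sham and 89 in TBI, of which NK-like cells held 29 and 23 and T cell-like cells 19 and 62.

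The genes whose levels followed each member most closely over the 44 profiles, 22 groups of cells in 2 libraries, were found among 9881 genes by the correlation of log2 CPM, as a description. The profiles of a group share its depth and composition. For Irf5 they were Ctss (r = 0.91), Napsa (0.91) and Ly86 (0.90), and for Irf8 Lat2 (0.86), BC035044 (0.85) and Scimp (0.85). For Irf1 they were Clec2d (0.82), H2-D1 (0.82) and H2-T23 (0.81), of which the last 2 encode major histocompatibility class I molecules. Ifngr1 was most like Gm4070 (0.83), Gab3 (0.81) and Cyp4f16 (0.75), and Ifngr2 like Csf2rb (0.74), Pirb (0.73) and Spi1 (0.72). Irf7 was closest to Rnf213 (0.72), Bst2 (0.71) and Usp18 (0.71), Ifnar1 to Tapbp (0.76), Rnf213 (0.72) and Ifi35 (0.72), Ifnar2 to Scarb2 (0.72), Rrbp1 (0.71) and Bst2 (0.69), and Stat2 to Ifi35 (0.77), Arglu1 (0.72) and Gtpbp2 (0.72). Between members, the highest value was that of Irf5 with Irf8, 0.80, and the 2 chains of the interferon-gamma receptor were at 0.00, against 0.57 for those of the type I receptor.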

How the data were processed

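Single-cell RNA of dorsal meninges was counted in 1 Sham and 1 TBI library, made with 10x Genomics 3' chemistry. The deposited matrices hold counts of UMIs per gene and barcode that the authors made with Cell Ranger. Its version is 2.1.1 in the submitters' processing notes and 3.1.0 in the matrix header. The genome build is GRCm38, and every column had a sample.

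Barcodes were kept with 150 to 5000 genes, at most 20% mitochondrial and at most 5% hemoglobin UMIs. Cells were clustered in scanpy 1.11.5 and leidenalg 0.10.2 (2000 variable genes without the 9 members, 20 principal components, 20 neighbours, resolution 0.8). Clusters were named from marker lists. The expected number of cells with the highest doublet scores was marked and left in. It was set at 0.8% per 1000 cells of a library, which gave 33 Sham and 114 TBI cells. UMIs were summed per group of cells and library and divided by the sum (CPM). Log2 ratios were formed with 0.5 added to each sum. Intervals are exact, binomial for ratios and shares and Poisson for levels, computed with scipy 1.17.1. UMIs of 1 library are not replicates, so no p-value was computed. Only the ratios and their intervals were tested on simulated data, which held counting error alone and no variation between cells or mice. The filtering, clustering and naming of cells were not part of that simulation.

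The members and lists were chosen with earlier results of these data known. All members were named, with at most 3 genes of a list by size of ratio in macrophage-like cells among those with at least 50 UMIs, the 3 genes most like each member among those with at least 200 UMIs (correlation of log2 of CPM plus 10), and Ifi203 and Irf2bp2. Alternatives were equal weight for cells, thinning to 1000 UMIs, doublets removed, other size factors, other resolutions, members among the variable genes, own marker genes, hemoglobin and mitochondrial UMIs left out, 2 added to each sum and lower UMI minimums. A further 3 were chosen after seeing the data, namely joining the unnamed groups, leaving out the shallow macrophage-like cluster, and leaving out the 3 cells of each library highest in the gene.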

Additional observations from a re-analysis of the deposited data

How the results depend on the processing

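Of the log2 ratios recomputed, 610 stayed inside the counting interval of the reported ratio and 585 kept its sign, while 54 changed sign. Of these 54, 4 were of ratios past 1.5-fold as reported. Irf8 in dendritic-like cells was -0.18 as a mean over cells. Irf7 in fibroblast-like cells was -0.38 at resolution 0.4, -0.083 with own marker genes and -0.39 with the unnamed groups joined. The causes were not tested. The number of members past 1.5-fold in macrophage-like cells was 1 with own marker genes, when thinned and without the 3 highest cells, and in B cell-like cells 1 when thinned. In T cell-like cells it was 1 as a mean over cells, at resolution 0.4, with own marker genes and when thinned, and 3 without the 3 highest cells. In NK-like cells it was 0 as a mean over cells, 3 at resolution 1.6 and with own marker genes, and 2 without the 3 highest cells. Without those cells it was 2 in endothelial-like and 5 in fibroblast-like cells, where the median was 0.49. The same 3 cells are a larger part of the smaller Sham library. Of the other counts 65 stayed within 1.5 times. Medians of the members kept their sign in 68 cases and changed it in 12. They ranged from -0.31 to 0.20 in T cell-like, from 0.03 to 0.27 in macrophage-like, from 0.22 to 0.42 in dendritic-like and from -0.38 to 0.04 in NK-like cells. With a minimum of 10 UMIs the share of all genes past 1.5-fold in macrophage-like cells was 16.6%, and with 1 UMI 28.8%. Median-of-ratios scaling shifted all genes by -0.02 to 0.02. Ratios with fewer than 20 UMIs after an alternative have no value, except where the 3 highest cells were left out. There the minimum was applied before those cells were removed. In fibroblast-like cells Irf5 was then 1.17 on 0 and 7 UMIs and Irf7 2.30 on 0 and 16 UMIs. In NK-like cells Irf7 was -0.63 on 13 and 6 UMIs. The counts and medians without the 3 highest cells include these ratios. No paired analysis was possible because each group is 1 library, and for the same reason no replicate could be left out.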
